A study of Mus musculus with 28 samples.

Results

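The glutathione genes of the mouse testis were followed in 28 RNA-seq libraries: the cytosolic and microsomal glutathione transferases, the glutathione peroxidases, and the enzymes that make, reduce and break down glutathione. Members were taken by gene name, with no measured value in the rule, but earlier results of these data were known when it was chosen. They are the symbols of the families Gsta, Gstm, Gstp, Gstt, Gsto, Gstz, Gstk, Mgst and Gpx, with Gsr, Gss, Gclc, Gclm, Ggt1, Ggt5, Ggt6 and Ggt7 added. This gave 40 of the 43280 gene rows. They comprise 4 alpha, 7 mu and 2 pi transferases, 8 transferases of the theta, omega, zeta and kappa classes, 3 microsomal transferases, 8 peroxidases, 4 enzymes of synthesis and reduction, and 4 gamma-glutamyl transferases.

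Glutathione is the main small thiol of the cell. Transferases join it to electrophilic compounds so that these can be exported, peroxidases spend it to reduce hydrogen peroxide and lipid peroxides, and glutathione reductase returns the oxidised form to use. Sertoli cells, the somatic cells that nurse the germ cells of the seminiferous tubule, are known in the rat to secrete transferases, and developing sperm depend on the peroxidase Gpx4.

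The NANOS2 KO group consisted of whole testes from knockout mice on a CD1 background. It has 18 libraries, 2 on each of the 9 days from 42 to 50 after an injection of retinoic acid (RA). The series describes these testes as deficient in germ cells. The sorted group consisted of 10 libraries of RFP-positive Sertoli cells. Their mice were heterozygous for this red fluorescent protein and positive for Amh-Cre, a recombinase driven by the Sertoli promoter Amh, and had germ cells. Their strain was given as C57BL/6 x 129s4/SvJae, except for group A replicate 1, given as derived from C57BL/6 x Amh-Cre. All animals of both groups had received WIN 18,446, an inhibitor of RA production, for 7 days and then RA, which brings the tubules into step. No group went without this treatment. The sorted cells came from the same span of days. The sorted libraries fall into 5 groups of 2 by the prevailing stages of the seminiferous cycle. Group A was enriched for stages XI-XII, B for I-III, C for IV-VI, D for VII-VIII and E for IX-X. The labels do not say whether replicates came from separate animals. The p-values therefore measure the spread between these samples, which may be technical. The labels call the knockout libraries Sertoli although whole testis was harvested, and the extraction notes speak of sorted germ cells; neither changed the grouping.

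Library totals ran from 1336742 to 4370138 counts in the knockout and from 1901743 to 5279746 counts in sorted cells. CPM below are counts per 1000000 counts of the library. A count of 0 allows up to 3 counts, or 0.686 to 2.24 CPM in knockout libraries and 0.568 to 1.58 CPM in sorted ones. Such limits and all counting intervals cover counting error only. Nanos2 had 0 counts in the knockout and 2 in sorted cells, too few to check the genotype. All 22 genes of a Sertoli list were detected, with a sum of 18083 to 21454 CPM in the knockout and 11492 to 16967 CPM in sorted cells. Clu was the largest contributor, with a median of 10657 CPM in the knockout and 4698 CPM in sorted cells. In the test between these groups 9 genes of the list were higher in the knockout and 9 lower. Germ cell transcripts were present in the sorted libraries: 14 genes of elongating spermatids summed to 3858 to 20271 CPM there, against 151 to 222 CPM in the knockout with 4 of the genes at 0. Nearly all of the knockout sum was Odf2, at 149.9 to 221.2 CPM, and each other gene of the list read at most 1.7 CPM there. Leydig cell genes marked the whole testes, with a sum over 10 genes of 2881 to 7998 CPM in the knockout, against 69.3 to 459 CPM in sorted cells, where Insl3 and Lhcgr were at 0. In such mixed RNA, fewer cells of a type and less RNA per cell cannot be told apart.

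Of the 40 members, 37 had a count in the knockout and 38 in sorted cells. Gpx2 had none in either, Gpx5 had 1 count in a sorted library, and Ggt6 had 1 count in a knockout library. Gstm3 was the other member too low for any test, with 0 to 2.89 CPM in knockout libraries and 0 to 1.09 CPM in sorted ones. Tests covered 31 members in the knockout, 30 in sorted cells and 36 across both.

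Levels of different members can be compared after division by the length of their exons. On that scale, CPM per kb of exon averaged over libraries, mu and alpha transferases led in both groups. In the knockout Gstm1 averaged 1929 CPM per kb, Gstm2 1076, Gsta4 333, Gstm7 288 and Gstm6 231. In sorted cells Gstm7 averaged 652 CPM per kb, Gstm2 632, Gstm5 559, Gsta4 488 and Gstm1 426, followed by the peroxidase Gpx4 at 301. The enzymes of synthesis and reduction were lower. In the knockout Gclc averaged 16.9 CPM per kb, Gclm 4.83, Gss 3.52 and Gsr 18.4, and in sorted cells Gclc averaged 8.67 CPM per kb, Gclm 4.74, Gss 5.64 and Gsr 25.8. All members together summed to 5892 to 8401 CPM in knockout libraries and 5482 to 7447 CPM in sorted ones. The mu class made up 4381 to 6663 CPM of this in the knockout and 3392 to 5269 CPM in sorted cells.

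**Figure D1:**
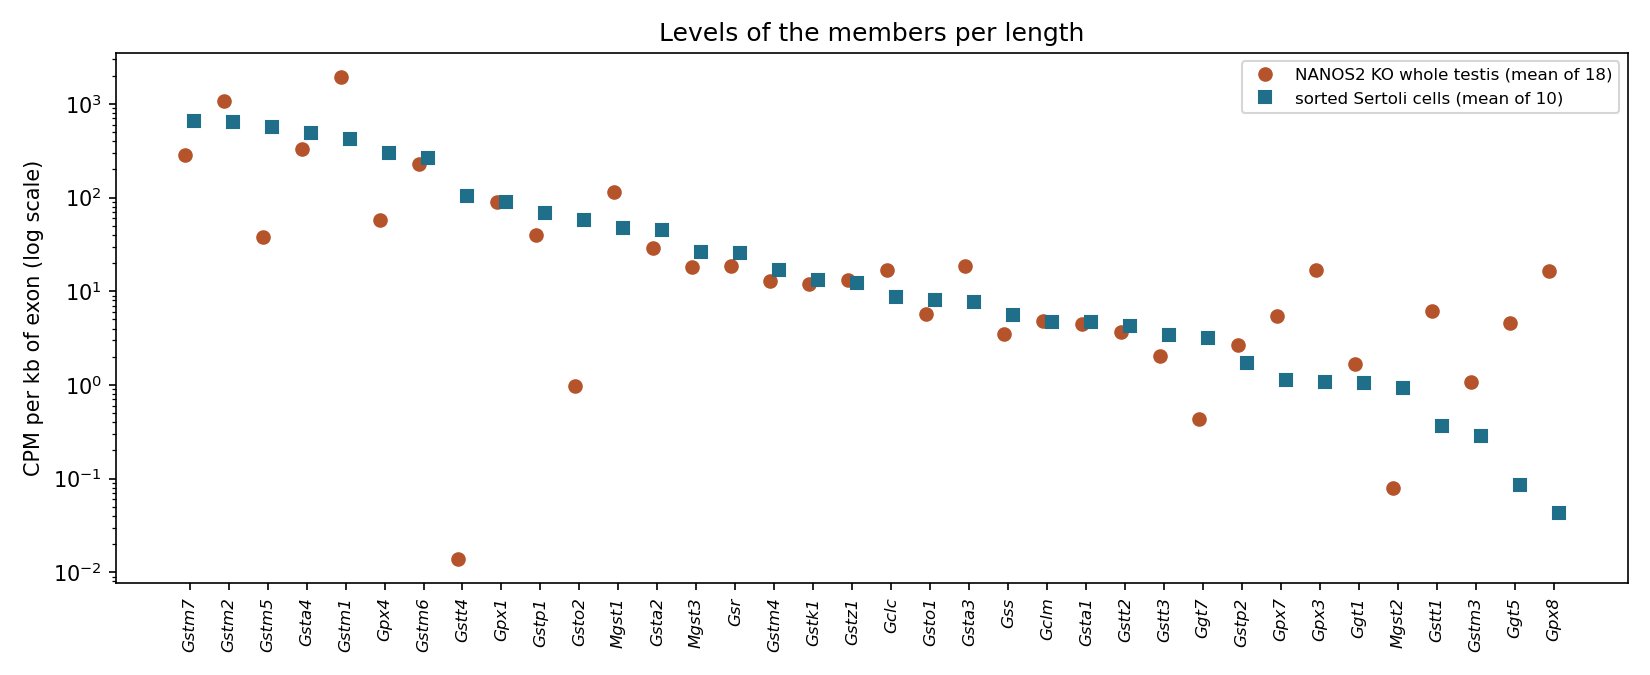
Mean level of each member per length (vertical axis, CPM per kb of exon, log scale) in NANOS2 KO whole testis (circles, mean of 18 libraries) and sorted Sertoli cells (squares, mean of 10), ordered by the sorted level. Gpx2, Gpx5, Gpx6 and Ggt6, without a count in one of the groups, are not drawn. Gstm1 stands highest in the knockout at 1929 CPM per kb, and Gstt4, at 104 CPM per kb in sorted cells, is at 0.0140 in the knockout.

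Many members are neighbours in the genome (GRCm38, GENCODE M21). The 7 mu genes lie within 149.1 kb of chromosome 3 (chr3:107895821-108044894), Gsta1, Gsta2 and Gsta4 within 173.0 kb of chromosome 9 (chr9:78182774-78355788), and the 4 theta genes within 63.3 kb of chromosome 10 (chr10:75774115-75837424), next to Ggt1 and Ggt5. Gsta3 stands alone on chromosome 1 (chr1:21240589-21265661). Gsta1 and Gsta2 are near copies: of the stretches of 50 bases in Gsta1 exons, 46.6% also occur in Gsta2, and 36.0% the other way round. Gstp2 shares 49.1% of its stretches with Gstp1, and Gstm3 shares 9.83% with Gstm1. The counting step is not given in the sources used here, so the split of reads within these pairs is uncertain.

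The upstream sequences of the 3 alpha genes whose levels moved most across the cycle are shown because 2 of them moved together and the other did not. Each window runs from 250 bases before to 50 bases after the RefSeq start (GRCm38.p6), and reads 5′ to 3′ on the gene's strand. In Gsta1 (chr9:78230419-78230718, plus strand) and Gsta2 (chr9:78347096-78347395, minus strand) the capitals mark the longest run of bases the pair share, 29 bases beginning at -118 and -121 from the start. In Gsta3 (chr1:21240335-21240634, plus strand) the capitals mark a match to TGACNNNGC, the core of the antioxidant response element bound by Nrf2, at -121.
Gsta1: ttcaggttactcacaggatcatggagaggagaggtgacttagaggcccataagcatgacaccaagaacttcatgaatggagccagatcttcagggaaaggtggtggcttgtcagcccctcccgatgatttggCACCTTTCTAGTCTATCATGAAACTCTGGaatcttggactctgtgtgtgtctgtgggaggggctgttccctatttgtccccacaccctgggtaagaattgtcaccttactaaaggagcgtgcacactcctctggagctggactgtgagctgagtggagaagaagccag
Gsta2: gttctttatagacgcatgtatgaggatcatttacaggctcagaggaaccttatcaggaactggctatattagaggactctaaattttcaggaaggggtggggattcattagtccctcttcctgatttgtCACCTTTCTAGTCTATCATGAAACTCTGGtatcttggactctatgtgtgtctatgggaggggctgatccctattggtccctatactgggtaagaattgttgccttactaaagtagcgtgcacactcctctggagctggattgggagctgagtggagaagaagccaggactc
Gsta3: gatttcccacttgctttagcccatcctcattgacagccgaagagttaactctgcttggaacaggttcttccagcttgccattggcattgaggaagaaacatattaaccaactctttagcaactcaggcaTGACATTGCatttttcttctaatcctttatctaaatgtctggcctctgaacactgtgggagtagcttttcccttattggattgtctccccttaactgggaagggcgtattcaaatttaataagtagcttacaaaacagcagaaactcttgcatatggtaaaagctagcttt
Aligned end to end, the Gsta1 and Gsta2 windows had identical bases in 75.3% of columns, whereas Gsta1 and Gsta3 had 54.9% and Gsta2 and Gsta3 52.9%. The motif TGACNNNGC, searched on both strands, was found in 6 of the 35 members with a window (17.1%): Gsta3, Gstm5, Gstm7, Gclm, Mgst1 and Ggt1. The share over all 27025 genes with a window was 13.99%. A match describes these letters and does not show a binding site.

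The first comparison asked which members differed among the 5 stage groups of sorted Sertoli cells. The alpha transferases Gsta2 and Gsta1 were highest in C and D and lowest in A, Gsta3 was highest in D and E and lowest in C, the kappa transferase Gstk1 and the mu transferase Gstm4 were highest in C and D, and the theta transferase Gstt4 was lowest in D. These 6 of 30 tested members differed among groups, against 8.07% of all 14331 genes (edgeR quasi-likelihood F test, adjusted p under 0.05). All 6 were transferases, as were most members tested. The split of reads between Gsta1 and Gsta2 is uncertain, so their calls here and below may not be independent. No peroxidase of the 3 tested, none of the 4 genes of synthesis and reduction, and no microsomal, pi or gamma-glutamyl transferase passed. Unadjusted, Gstt2, Mgst1 and Gstm6 also had a p under 0.05, which makes 9 members, against 3141 of all 14331 genes. Without group D replicate 1 the count was 3.

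Gsta2, an alpha transferase that conjugates products of lipid peroxidation, read 7.45 and 6.60 CPM in group A, 28.9 and 41.97 in B, 148 and 107 in C, 76.3 and 82.9 in D and 14.02 and 23.7 in E. Both C and both D libraries lay above every library of the other groups, and both A libraries lay below them. The adjusted p over the 5 groups was 0.000311. Gsta1, its neighbour and near copy, read 0.382 and 0.194 CPM in group A, 1.58 and 2.24 in B, 8.34 and 12.5 in C, 10.4 and 6.53 in D and 1.14 and 1.32 in E, at a far lower level, and again the C and D libraries stood above all others (adjusted p = 0.00178). In group A Gsta1 lay within the limit that a count of 0 allows. The mean of the highest group over that of the lowest, C over A, was 18.1 for Gsta2 and 36.2 for Gsta1. How many Gsta1 reads stem from Gsta2 was not tested.

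Gsta3, an alpha transferase that in the mouse clears the epoxide of aflatoxin, read 29.4 and 20.4 CPM in group A, 14.7 and 14.1 in B, 4.35 and 15.5 in C, 70.7 and 61.7 in D and 45.5 and 56.6 in E. Its D and E libraries stood above those of A, B and C, with C replicate 1 the lowest of all, whereas Gsta1 and Gsta2 were high in C. The adjusted p over the groups was 0.00899, but 0.0524 without group D replicate 1. Gstk1, a transferase of mitochondria and peroxisomes, read 5.16 and 6.02 CPM in group A, 8.94 and 21.1 in B, 29.7 and 42.7 in C, 37.2 and 25.1 in D and 9.85 and 5.93 in E (adjusted p = 0.00907). Its C and D libraries were above all others, although B replicate 2 came near the lowest of them.

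Gstm4, a mu transferase, read 15.9 and 15.5 CPM in group A, 20.5 and 16.7 in B, 29.01 and 42.96 in C, 42.1 and 57.5 in D and 21.97 and 25.02 in E (adjusted p = 0.0278). The C and D libraries again exceeded every other library. Gstt4, a theta transferase, read 113 and 169 CPM in group A, 109 and 179 in B, 101 and 74.03 in C, 34.2 and 58.8 in D and 85.6 and 101 in E (adjusted p = 0.0389), with both D libraries below all others. Each of the last 2 calls was lost without group B replicate 2, without either D library or without either E library, and that of Gstt4 also when scaled by library totals alone.

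**Figure D2:**
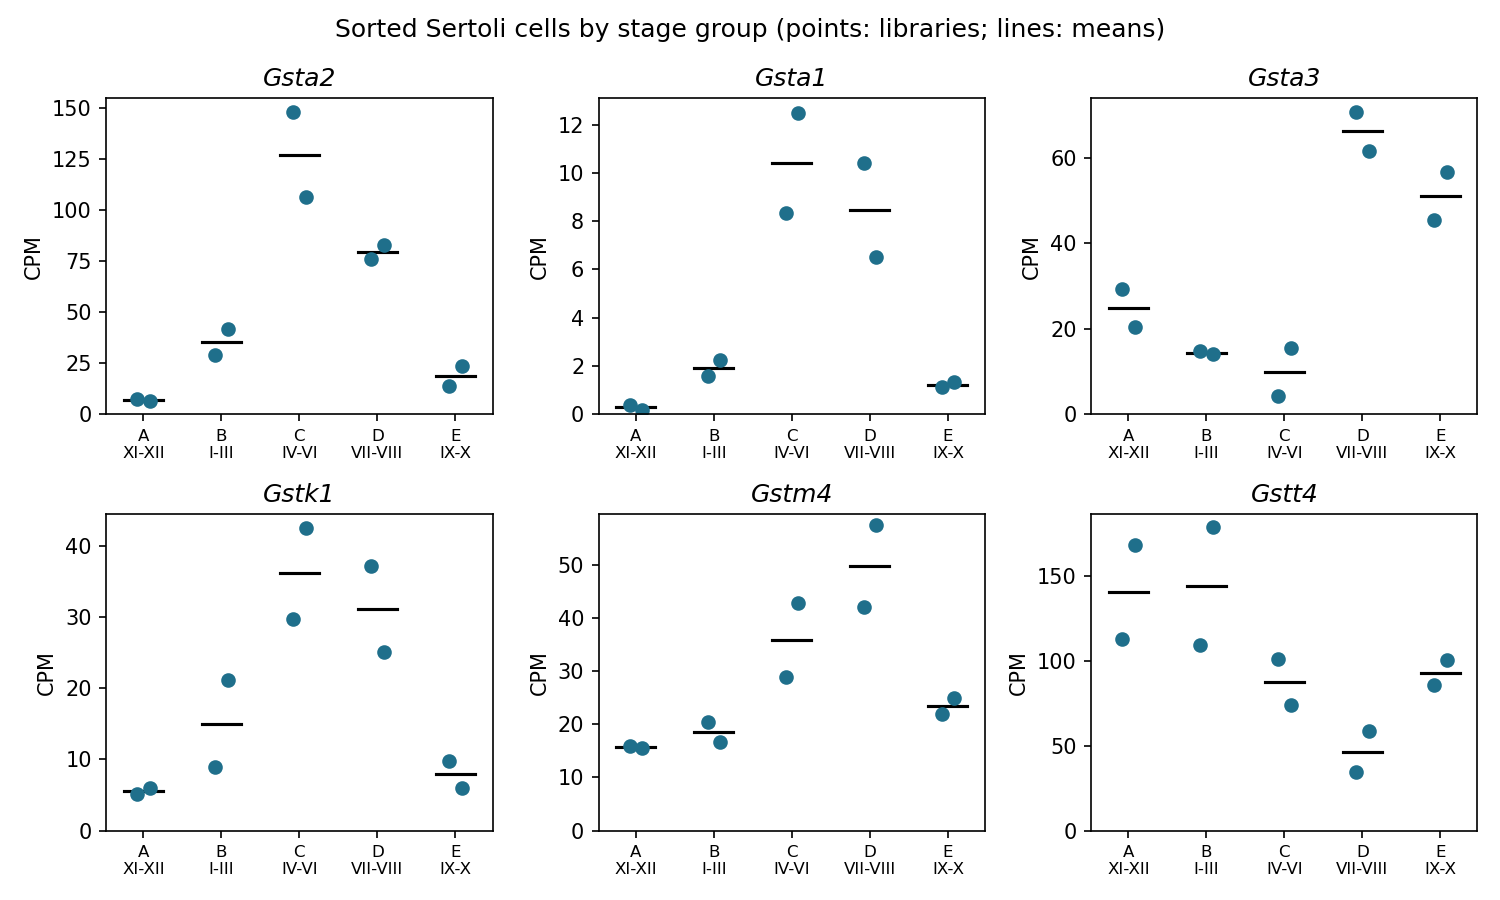
Level in CPM (vertical axes, linear from 0) of the 6 members that differed among stage groups, in sorted Sertoli cells of groups A to E (horizontal axes). Points are libraries, 2 per group, and lines are group means; Gsta2, Gsta1, Gstk1 and Gstm4 peak in C and D, Gsta3 in D and E, and Gstt4 is lowest in D.

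Sums over marker lists of other cells differed among these groups, although a few genes carried the Leydig and macrophage sums. The elongating spermatid list (14 genes) summed to 15506 and 20271 CPM in A, 16604 and 19551 in B, 10697 and 14807 in C, 3858 and 5205 in D and 12331 and 15689 in E. The Leydig list (10 genes) summed to 78.4 and 100.5 CPM in A, 78.5 and 89.4 in B, 69.3 and 328 in C, 318 and 459 in D and 184 and 263 in E, with Insl3 and Lhcgr at 0 throughout and Ptgds the largest contributor. The macrophage list (9 of 10 genes in the tables) was lowest in D at 148 and 160 CPM and reached 347 and 403 CPM in A. Over all sorted libraries this sum came mostly from Aif1 (median 174.6 CPM) and Mrc1 (median 115 CPM), while Csf1r, Cd68, Lyz2, C1qa, C1qc and Cd163 had medians of 0.095 to 1.33 CPM. Mitochondrial transcripts made up 12.5% of the counts in D replicate 1 and 4.61% in D replicate 2, the highest and lowest shares of the sorted libraries. The part of other cells or of these shares in the results was not tested.

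Each group was also set against the mean of the other 4, in contrasts that share their libraries. In group D 5 members rose and 1 fell. Of all genes 8.65% were called, 4.36% higher and 4.28% lower. The members had a median log2 fold change of 0.31, against 0.04 over all genes. Those higher in D were Gsta2 (log2 fold change 1.48, SE 0.23, adjusted p = 0.00165), Gsta1 (log2 fold change 2.27, SE 0.40, adjusted p = 0.00359), Gsta3 (log2 fold change 1.63, SE 0.31, adjusted p = 0.00588), Gstm4 (log2 fold change 1.12, SE 0.24, adjusted p = 0.0122) and Gstk1 (log2 fold change 1.26, SE 0.33, adjusted p = 0.0308). Gstt4 fell in D (log2 fold change -1.32, SE 0.30, adjusted p = 0.0156). Of these, Gsta2 alone was called in D in every fit that left out a library. Without D replicate 1 the count was 1, the calls of Gsta1, Gsta3, Gstk1, Gstm4 and Gstt4 being lost, and without D replicate 2 it was 2, those of Gsta3, Gstk1, Gstm4 and Gstt4 being lost; that of Gstk1 was lost as well without C replicate 1 or E replicate 2.

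In group C 3 members rose and 1 fell, against 2.64% of all genes called, 1.95% higher and 0.691% lower. Gsta2 (log2 fold change 2.34, SE 0.22, adjusted p = 0.000271), Gsta1 (log2 fold change 2.69, SE 0.39, adjusted p = 0.00287) and Gstk1 (log2 fold change 1.57, SE 0.32, adjusted p = 0.0215) rose. Gsta3 fell in C (log2 fold change -1.71, SE 0.40, adjusted p = 0.0435). Gsta2 and Gsta1 passed in C whichever library was left out. The call of Gstk1 was lost without either C library, D replicate 2 or E replicate 2, and that of Gsta3 without B replicate 1, C replicate 1, or any 1 of the D and E libraries, so that 2 members were called without C replicate 1, D replicate 2 or E replicate 2.

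In group A 2 members fell and none rose, against 1.67% of all genes called, 0.789% higher and 0.886% lower. Gsta2 (log2 fold change -2.80, SE 0.31, adjusted p = 0.00208) and Gsta1 (log2 fold change -3.54, SE 0.64, adjusted p = 0.0175) fell. Gsta1 was not called without either A library, which left 1 member. In group B 0 of 30 members passed (edgeR), against 0.0419% of all genes, and 0 by DESeq2, which called 112 genes. Unadjusted in edgeR, 2 members and 1298 of 14331 genes had a p under 0.05 in B. In group E 0 members passed (edgeR), against 0.523% of all genes, while DESeq2 called 2 members and 294 genes. Unadjusted in edgeR, 6 members and 1702 of 14331 genes had a p under 0.05 in E. Gsta2 and Gsta3 had the smallest p in E, with log2 fold changes of -1.12 and 1.17 and adjusted p of 0.0873 and 0.129.

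From group C to group D, 1 member changed, against 0.628% of all genes, 0.0140% higher and 0.614% lower. Gsta3 was higher in D than in C (log2 fold change 2.67, SE 0.47, adjusted p = 0.025). This call was lost without C replicate 1 and without any 1 of the D and E libraries. From D to E 3 members fell and none rose, against 3.56% of all genes, 1.99% higher and 1.57% lower. Gsta2 (log2 fold change -2.08, SE 0.32, adjusted p = 0.00522), Gsta1 (log2 fold change -2.74, SE 0.55, adjusted p = 0.0171) and Gstk1 (log2 fold change -1.94, SE 0.46, adjusted p = 0.0356) fell. Gsta3 held 45.5 and 56.6 CPM in E against 70.7 and 61.7 CPM in D. Without E replicate 1 none of the 3 was called, and without E replicate 2 or either D library 1 was, the call of Gsta2.

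Among members that did not pass, the mean of the highest group over that of the lowest was 1.51 for Gsta4, 1.68 for Gstm1, 1.65 for Gstm2, 1.43 for Gstm7, 1.49 for Gpx4, 1.62 for Gpx1, 1.39 for Gstp1, 1.10 for Gss and 1.64 for Gsr. Gsr, glutathione reductase (chr8:33652523-33698163), read 94.5 and 71.2 CPM in group A, 79.4 and 53.2 in B, 49.3 and 51.5 in C, 76.3 and 70.6 in D and 82.6 and 81.9 in E, with no adjusted p under 0.05 in any stage comparison. Wider but uncalled were Gstt2 (ratio 3.74, adjusted p = 0.0871) and Mgst1 (ratio 2.73, adjusted p = 0.0893). Of the 25 members tested in both sets, the median ratio was 1.57 over the 9 knockout days and 1.75 over the 5 stage groups. Of these members, 16 had the larger ratio over stages. The coefficient of variation between libraries of a group, estimated by edgeR, was 0.268 in sorted cells and 0.122 in the knockout. The ratios carry that spread and the numbers of groups differ, so the 2 medians cannot be compared.

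The second comparison asked whether members moved over the 9 days in the germ cell-deficient testes. With a straight line over days, 2 of 31 tested members rose, against 0.857% of all 13065 genes called, 0.490% higher and 0.367% lower. They were Gsr and the pi transferase Gstp1. Over the days without a set shape, 0 members passed (edgeR F test), against 0.582% of all genes. DESeq2 called 1 member and 215 genes there. Unadjusted in edgeR, 10 members and 1455 of the 13065 genes had a p under 0.05. With a wave of 1 cycle in 8.6 days, 0 members and 0 genes passed (edgeR). Unadjusted, 1 member and 1262 genes had a p under 0.05, and DESeq2 called 0 members and 57 genes.

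Gsr read 34.8 and 38.7 CPM on day 42, 46.7 and 49.7 on day 43, 43.0 and 43.6 on day 44, 48.3 and 52.1 on day 45, 53.1 and 49.4 on day 46, 58.6 and 45.0 on day 47, 58.4 and 54.8 on day 48, 51.5 and 56.7 on day 49, and 70.6 and 57.7 on day 50. Both day 42 libraries were the lowest, and a day 50 library the highest. The slope was 0.08 log2 units per day (SE 0.01, adjusted p = 0.0172). It was not called without either day 42 library or without day 50 replicate 1, where the adjusted p reached 0.0614, nor with both day 42 libraries left out (adjusted p = 0.17).

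Gstp1, which conjugates electrophiles and acts on protein thiols, read 37.9 and 58.8 CPM on day 42, 46.7 and 48.0 on day 43, 66.8 and 62.3 on day 44, 59.7 and 45.6 on day 45, 51.4 and 50.1 on day 46, 49.5 and 59.6 on day 47, 60.5 and 74.2 on day 48, 108 and 68.6 on day 49, and 90.4 and 69.6 on day 50. Both day 44 libraries lay above every other library of days 42 to 47, and the highest library of all was day 49 replicate 1. Mitochondrial transcripts made up 0.715% of the counts of that library, against 2.33% to 3.24% in the other 17 knockout libraries. Without it, Gstp1 still passed (slope 0.08, adjusted p = 0.0348), and 3 members were called on the line. The slope was 0.10 log2 units per day (SE 0.02, adjusted p = 0.0372). It was not called in 7 of the 18 fits that left out a library, with both day 42 libraries left out (adjusted p = 0.155), or by limma. The count of members called on the line was 0 without 1 of the day 42 libraries or without day 50 replicate 1, and 1 without the other day 42 library, either day 43 library, day 45 replicate 2 or either day 48 library.

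Of the genes that moved along the cycle in sorted cells, Gsta3 read 44.1 and 57.4 CPM on day 42 and 65.5 to 101 CPM on later days, with a slope that did not pass and an adjusted p over days of 0.139. Gsta2 read 21.5 to 48.3 CPM in the knockout, with 24.6 CPM the lowest day mean, on day 42, and 43.7 CPM the highest, on day 48. The Leydig list summed to 2922 and 3005 CPM on day 42, 7520 and 7802 CPM on day 48, 2881 and 3875 CPM on day 49 and 4920 and 7998 CPM on day 50. In the F test over the days 5 of the 9 tested Leydig genes were called, against 0.582% of all genes. Insl3, a Leydig hormone, was the 1 of the 9 that rose on the line (slope 0.19, SE 0.04, adjusted p = 0.0314). The part of these cells in the rise of Gsr and Gstp1 was not tested.

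**Figure D3:**
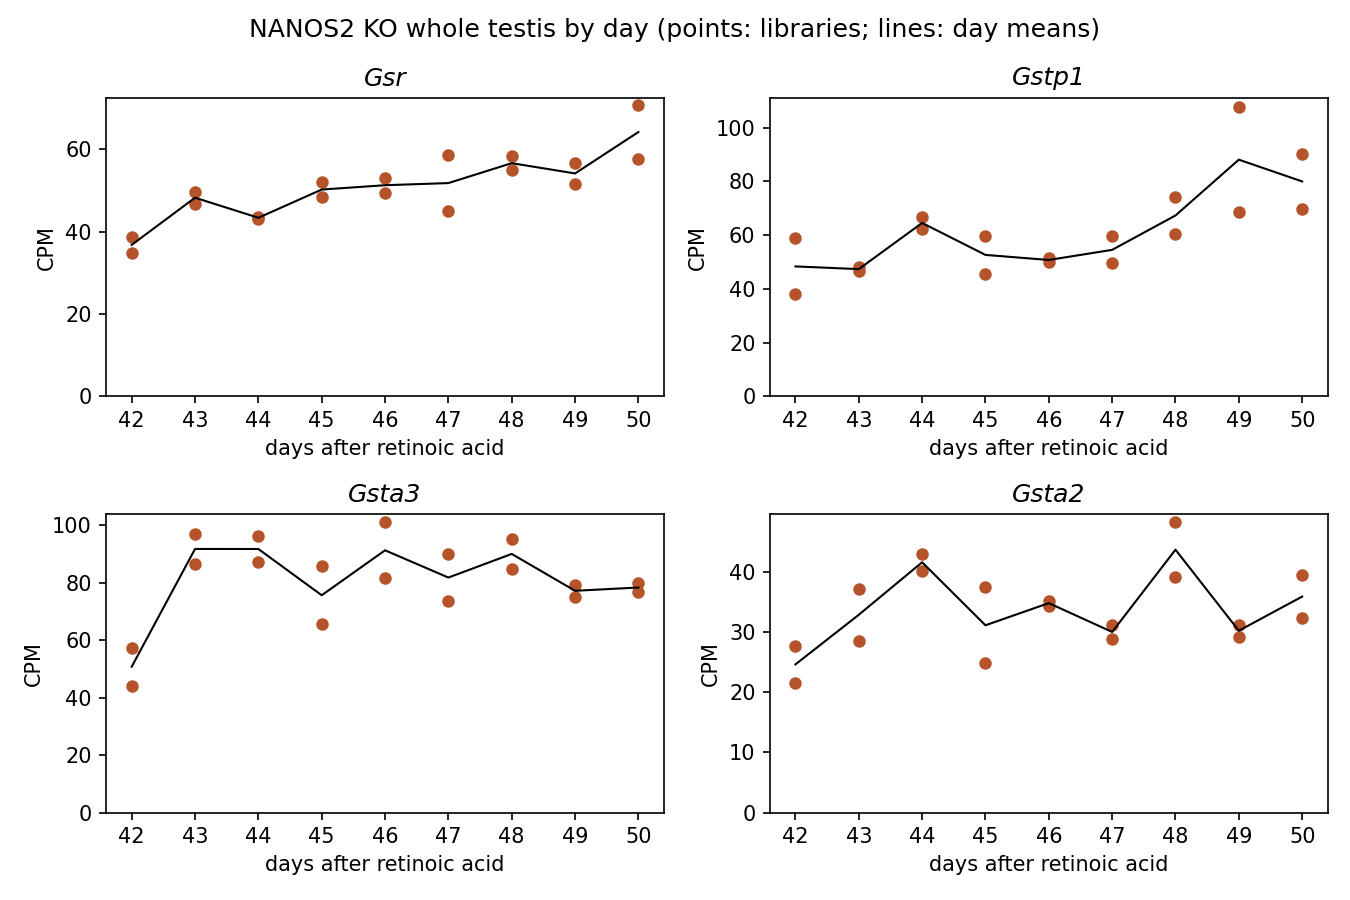
Level in CPM (vertical axes, linear from 0) of Gsr, Gstp1, Gsta3 and Gsta2 in NANOS2 KO whole testis on days 42 to 50 after retinoic acid (horizontal axes). Points are libraries, 2 per day, and lines join day means; Gsr is lowest on day 42 and highest on day 50, and Gsta3 is lowest on day 42.

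The third comparison set the knockout testes against all sorted libraries. Ggt5, Gpx8, Gpx3, Gstt1 and Gstm1 were far higher in the knockout. Gstt4, Gpx6, Gsto2, Mgst2, Gstm5, Ggt7 and Gpx4 were far lower there. Every class except pi held members that rose and members that fell. Genotype, strain, sorting and the other cells of the whole testis differ together between these groups and cannot be told apart. Mitochondrial transcripts made up 0.715% to 3.24% of the counts in knockout libraries and 4.61% to 12.5% in sorted ones, without overlap; their part in the fold changes was not tested. Most genes differed: 85.1% of 15777 genes were called, 38.0% higher and 47.0% lower in the knockout, and 32 of 36 tested members were called, 10 higher and 22 lower, a share close to the background. The median log2 fold change was -0.45 over members and -0.17 over all genes. Fold changes are knockout over sorted and follow TMM scaling, whose factors were 1.07 to 1.14 in the knockout and 0.796 to 0.887 in sorted cells. They therefore lie below the ratios of the CPM values given beside them. Overlap of libraries is judged on CPM before this scaling. Scaling lowers the knockout against sorted cells, so it can create overlap for members higher in the knockout and remove it for lower ones. Scaled by library totals alone, the all-gene median was 0.21, 56.4% of the called genes were higher, and 12 members were higher and 16 lower. Scaled to the Sertoli list the median was -0.31, 40.7% of the called genes were higher, and 10 members were higher and 23 lower. That scaling uses the summed counts of the list, to which Clu contributes most (median 10657 CPM in the knockout, 4698 CPM in sorted cells). Of the 22 list genes, 9 were called higher in the knockout and 9 lower.

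**Figure D4:**
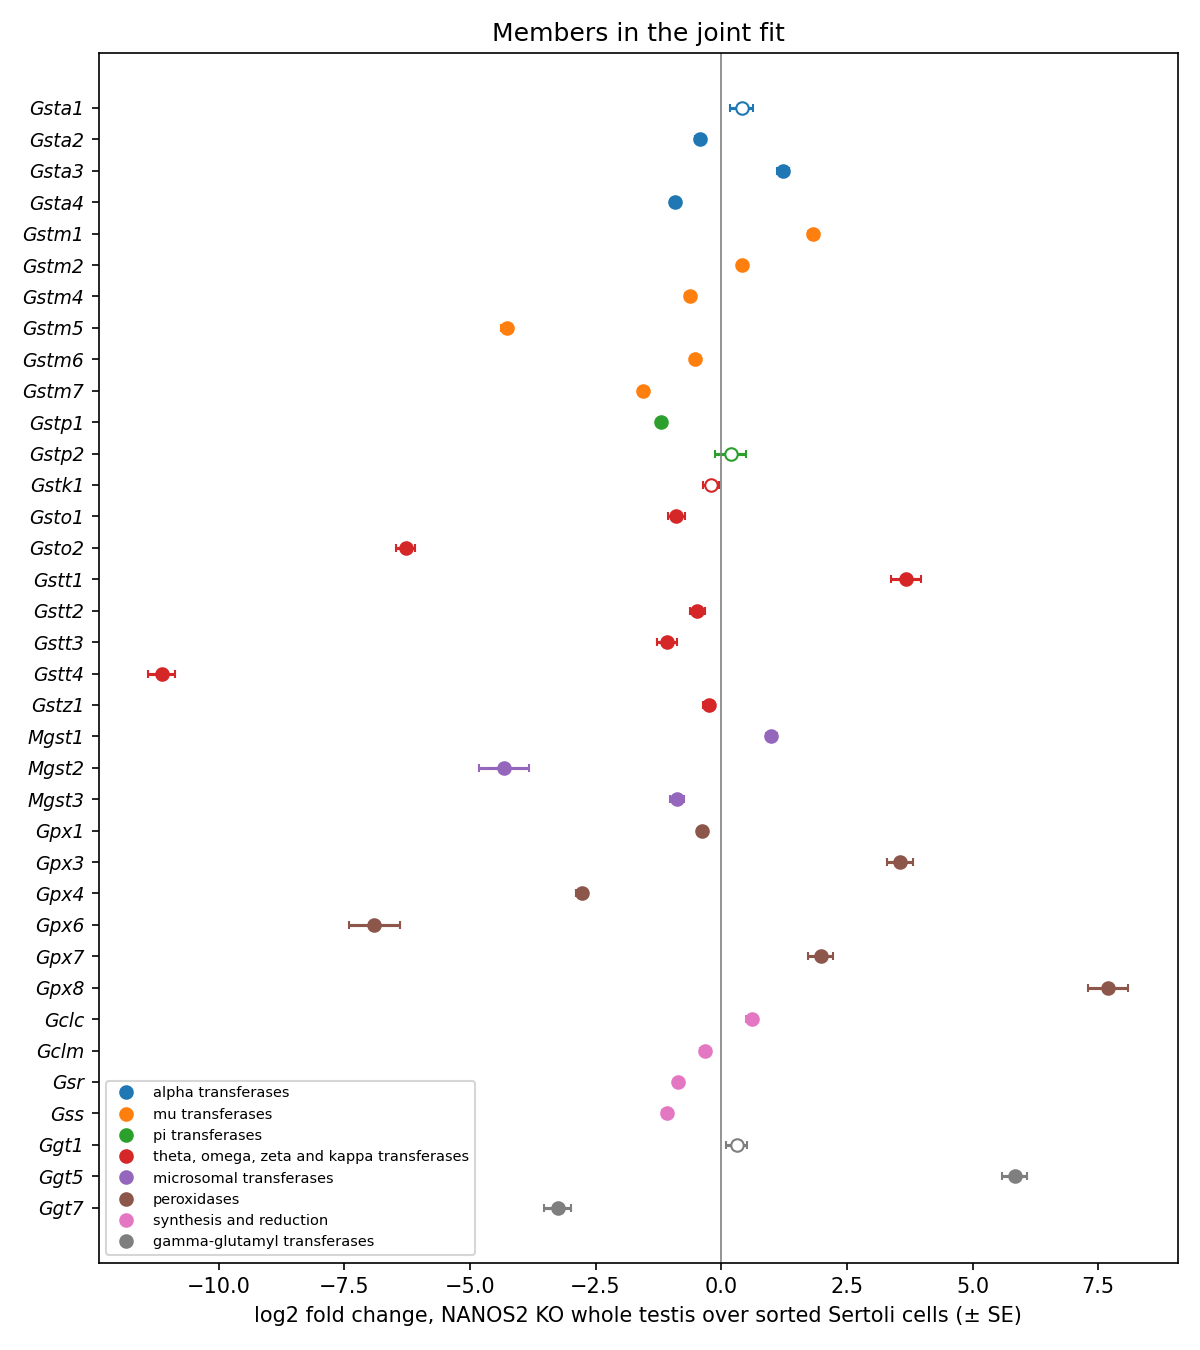
Log2 fold change of the 36 tested members, NANOS2 KO whole testis over sorted Sertoli cells (horizontal axis, bars ± SE), coloured by class. Filled points passed the test (adjusted p under 0.05) and open points did not; Gpx8, Ggt5, Gstt1 and Gpx3 lie farthest to the right and Gstt4, Gpx6 and Gsto2 farthest to the left.

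Among the enzymes of synthesis and reduction, Gclc, the catalytic subunit of glutamate-cysteine ligase that sets the pace of synthesis, rose in the knockout, and Gss and Gsr fell. Gclc had 50.03 to 81.3 CPM (median 63.3) in knockout libraries. Sorted cells had 41.8 and 24.3 CPM in group A, 32.1 and 20.2 in B, 29.01 and 30.2 in C, 43.6 and 34.8 in D and 33.7 and 36.9 in E. The groups lay close but did not overlap before scaling (log2 fold change 0.60, SE 0.10, adjusted p = 7.32e-06). Gss, glutathione synthetase, had 15.1 to 26.03 CPM (median 20.4) in the knockout. Sorted cells had 30.2 and 36.5 CPM in group A, 29.4 and 33.96 in B, 39.5 and 29.2 in C, 27.2 and 42.9 in D and 32.8 and 32.04 in E, also without overlap (log2 fold change -1.08, SE 0.10, adjusted p = 3.22e-10). Gsr had 34.8 to 70.6 CPM (median 50.6) in the knockout, against 49.3 to 94.5 CPM (median 73.8) in sorted cells, with overlap (log2 fold change -0.86, SE 0.08, adjusted p = 2.92e-10). Gclm, the modifier subunit, had 19.8 to 41.9 CPM (median 30.2) in the knockout. Sorted cells had 29.6 and 24.3 CPM in group A, 24.7 and 24.7 in B, 22.8 and 29.9 in C, 54.7 and 37.1 in D and 26.7 and 23.9 in E. Its groups overlapped, and its direction depended on the scaling, with a log2 fold change of -0.33 under TMM (SE 0.10, adjusted p = 0.00375) and 0.05 under library totals alone, where it was not called.

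The gamma-glutamyl transferases, which break down glutathione outside the cell, split. Ggt5 rose and read 16.4 to 40.1 CPM (median 25.9) in the knockout. Sorted cells had 0.191 and 0.194 CPM in group A, 1.05 and 0 in B, 2.18 and 0.609 in C, 0.372 and 0.261 in D and 0 and 0.219 in E, near the limit of detection there (log2 fold change 5.83, SE 0.24, adjusted p = 2.55e-17). Ggt7 fell and read 0.420 to 2.97 CPM (median 1.33) in the knockout. Sorted cells had 5.16 and 21.5 CPM in group A, 9.99 and 10.9 in B, 10.9 and 5.18 in C, 4.47 and 11.2 in D and 11.6 and 11.9 in E (log2 fold change -3.26, SE 0.27, adjusted p = 3.45e-11). Neither gene's groups overlapped. Ggt1, the best known of the family, had 1.74 to 8.23 CPM (median 5.55) in the knockout and 2.56 to 4.44 CPM (median 3.59) in sorted cells and did not pass (adjusted p = 0.164). Its log2 fold change depended on the scaling, at 0.31 under TMM and 0.68 under library totals alone.

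Of the 6 peroxidases tested, 3 rose and 3 fell. Gpx4, which reduces lipid hydroperoxides and forms part of the sperm midpiece, fell and read 76.4 to 131 CPM (median 93.1) in the knockout. Sorted cells had 422 and 738 CPM in group A, 430.1 and 765 in B, 480.1 and 554 in C, 321 and 481 in D and 449 and 556 in E (log2 fold change -2.77, SE 0.11, adjusted p = 6.12e-18). Every sorted library lay above every knockout library. Gpx6 had 0 counts in all 18 knockout libraries. Sorted cells had 4.97 and 8.35 CPM in group A, 4.73 and 6.73 in B, 2.90 and 4.87 in C, 1.86 and 2.61 in D and 2.08 and 5.71 in E. With 175 counts in sorted cells, it was at least 72.2-fold lower in the knockout, taking 3 counts over the group as the floor (adjusted p = 1.45e-09). Gpx1, the general cytosolic peroxidase, had 101 to 196 CPM (median 119) in the knockout. Sorted cells had 116 and 99.6 CPM in group A, 108 and 94.2 in B, 118 and 144 in C, 155 and 171 in D and 146 and 138 in E (log2 fold change -0.39, SE 0.08, adjusted p = 0.000118). Its groups overlapped, and it was not called under library totals alone or by limma.

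Gpx3, the secreted peroxidase, rose and read 13.7 to 58.2 CPM (median 24.6) in the knockout. Sorted cells had 2.29 and 2.14 CPM in group A, 1.58 and 1.28 in B, 0 and 2.44 in C, 4.09 and 2.61 in D and 1.14 and 1.98 in E, with no overlap (log2 fold change 3.56, SE 0.26, adjusted p = 2.05e-12). Gpx8, a peroxidase of the endoplasmic reticulum, had 8.10 to 23.3 CPM (median 18.2) in the knockout, and in sorted cells 1 count in D replicate 2 and 1 in E replicate 1, with 0 in the other 8 libraries. With 850 counts in the knockout and 2 in sorted cells, the ratio of pooled CPM was 343, with a counting interval of 94.8 to 2840 (95%, adjusted p = 4.40e-14). Gpx7, a relative in the same compartment, had 4.25 to 10.2 CPM (median 6.77) in the knockout. Sorted cells had 4.01 and 1.75 CPM in group A, 0.526 and 1.92 in B, 1.09 and 0.914 in C, 0.745 and 0.523 in D and 0.568 and 2.63 in E (log2 fold change 1.98, SE 0.25, adjusted p = 6.04e-08). Its groups were close but did not overlap before scaling.

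The mu transferases, which lie side by side, moved apart from each other. Gstm1 rose and read 2038 to 3455 CPM (median 2864) in the knockout, with no overlap. Sorted cells had 499 and 455 CPM in group A, 635 and 602 in B, 623 and 978 in C, 748 and 715 in D and 595 and 429 in E (log2 fold change 1.82, SE 0.10, adjusted p = 3.71e-15). Gstm2 had 1377 to 2197 CPM (median 1811) in the knockout. Sorted cells had 928 and 832 CPM in group A, 1102 and 1120.4 in B, 1168 and 1565 in C, 1198 and 1051 in D and 947 and 705 in E (log2 fold change 0.40, SE 0.08, adjusted p = 3.73e-05). The 2 groups of Gstm2 overlapped. Gstm5 fell and read 26.6 to 68.03 CPM (median 45.6) in the knockout. Sorted cells had 526 and 1023 CPM in group A, 652 and 739 in B, 425 and 694 in C, 613 and 513 in D and 817 and 1148 in E (log2 fold change -4.26, SE 0.11, adjusted p = 2.51e-21). The groups did not overlap. Gstm7 fell and read 404 to 506 CPM (median 463) in the knockout. Sorted cells had 968 and 841 CPM in group A, 1059 and 907 in B, 1046 and 1273 in C, 1224 and 1326 in D and 983 and 805 in E (log2 fold change -1.55, SE 0.07, adjusted p = 6.94e-17). These did not overlap either. Gstm4 had 17.1 to 30.1 CPM (median 21.7) in the knockout, against 15.5 to 57.5 CPM (median 23.5) in sorted cells (log2 fold change -0.62, SE 0.11, adjusted p = 9.07e-06). Gstm6 had 367 to 543 CPM (median 456) in the knockout. Sorted cells had 489.9 and 417 CPM in group A, 433 and 543 in B, 687 and 716 in C, 632 and 588 in D and 419 and 280.0 in E (log2 fold change -0.53, SE 0.07, adjusted p = 4.63e-07). Both overlapped, and Gstm6 was not called under library totals alone or by limma.

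Among the alpha transferases, Gsta3 rose and Gsta4 and Gsta2 fell. Gsta3 had 44.1 to 101 CPM (median 83.2) in the knockout, against 4.35 to 70.7 CPM (median 24.9) in sorted cells (log2 fold change 1.22, SE 0.12, adjusted p = 1.21e-09). The knockout range overlapped the D and E libraries and lay above those of A, B and C. Gsta4, which conjugates 4-hydroxynonenal, had 341 to 522 CPM (median 414) in the knockout. Sorted cells had 649 and 434 CPM in group A, 569 and 436 in B, 679 and 657 in C, 736 and 778 in D and 619 and 623 in E (log2 fold change -0.92, SE 0.07, adjusted p = 5.12e-12). Only A replicate 2 and B replicate 2 fell within the knockout range. Gsta2 had 21.5 to 48.3 CPM (median 33.4) in the knockout, against 6.60 to 148 CPM (median 35.4) in sorted cells (log2 fold change -0.42, SE 0.10, adjusted p = 0.00047), inside the span of the stage groups and not called under library totals alone or by limma. Gsta1 had 2.06 to 9.24 CPM (median 3.59) in the knockout and 0.194 to 12.5 CPM (median 1.91) in sorted cells and did not pass (adjusted p = 0.103). The log2 fold change of Gsta1 was 0.41 under TMM and 0.78 under library totals alone.

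The theta and omega classes held Gstt4 and Gsto2, which were nearly absent from the knockout. Gstt4 had 1 count over the 18 knockout libraries and 3979 over the sorted ones, a ratio of 4924 in favour of sorted cells with a counting interval of 883 to 194539 (95%, adjusted p = 9.10e-17). Gsto2, which reduces dehydroascorbate, fell and read 0 to 4.55 CPM (median 2.18) in the knockout. Sorted cells had 125 and 228 CPM in group A, 147 and 172 in B, 124 and 94.8 in C, 49.1 and 113 in D and 119 and 185 in E (log2 fold change -6.28, SE 0.19, adjusted p = 3.49e-20). Neither overlapped. Gstt1, the neighbour of Gstt4, rose and read 3.47 to 16.4 CPM (median 9.04) in the knockout. Sorted cells had 0.955 and 0.776 CPM in group A, 0 and 0.641 in B, 0.363 and 0 in C, 0.372 and 1.05 in D and 0.947 and 0.439 in E (log2 fold change 3.68, SE 0.30, adjusted p = 1.97e-11), also without overlap.

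Other members of these classes differed less. Gstt3 had 4.25 to 12.4 CPM (median 6.95) in the knockout. Sorted cells had 9.55 and 21.5 CPM in group A, 16.3 and 20.8 in B, 18.5 and 3.05 in C, 7.44 and 6.27 in D and 12.7 and 14.7 in E (log2 fold change -1.08, SE 0.20, adjusted p = 2.64e-05). Gsto1 had 5.78 to 21.1 CPM (median 9.60) in the knockout. Sorted cells had 15.1 and 9.51 CPM in group A, 14.2 and 13.1 in B, 12.7 and 21.6 in C, 24.9 and 18.03 in D and 18.2 and 16.2 in E (log2 fold change -0.89, SE 0.17, adjusted p = 4.19e-05). Both fell, with overlapping groups. Gstt2 had 10.6 to 20.9 CPM (median 14.8) in the knockout. Sorted cells had 6.30 and 11.1 CPM in group A, 9.99 and 16.02 in B, 39.9 and 24.98 in C, 15.6 and 25.6 in D and 9.85 and 17.8 in E (log2 fold change -0.48, SE 0.15, adjusted p = 0.00405). It was not called under library totals alone or by limma. Gstz1, an isomerase of tyrosine breakdown, had 37.02 to 80.7 CPM (median 69.04) in the knockout. Sorted cells had 57.7 and 62.9 CPM in group A, 70.5 and 75.3 in B, 58.02 and 63.98 in C, 72.6 and 40.8 in D and 60.6 and 59.9 in E. Its fold change was -0.25 under TMM (log2, SE 0.10, adjusted p = 0.0247) and 0.13 under library totals alone, and it was also not called under RLE scaling, by DESeq2, or without C replicate 2, D replicate 1 or E replicate 2. Gstk1 had 7.52 to 29.8 CPM (median 17.1) in the knockout and 5.16 to 42.7 CPM (median 15.5) in sorted cells and did not pass (adjusted p = 0.209).

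Gstp1 fell and read 37.9 to 108 CPM (median 59.6) in the knockout. Sorted cells had 102 and 89.3 CPM in group A, 104 and 92.9 in B, 106 and 113 in C, 124 and 141 in D and 99.8 and 98.1 in E (log2 fold change -1.20, SE 0.09, adjusted p = 3.31e-12). Before scaling, day 49 replicate 1 lay above 7 of the 10 sorted libraries and day 50 replicate 1 above 1 of them. The other knockout libraries lay below all of them. Gstp2 had 0 to 5.36 CPM (median 3.01) in the knockout and 1.05 to 4.27 CPM (median 1.66) in sorted cells and did not pass (adjusted p = 0.586). Of the microsomal transferases, Mgst1, of the endoplasmic reticulum and outer mitochondrial membrane, rose and read 181 to 305 CPM (median 228) in the knockout. Sorted cells had 151 and 97.4 CPM in group A, 139 and 60.2 in B, 54.03 and 39.6 in C, 81.1 and 72.7 in D and 123 and 133 in E. There was no overlap before scaling (log2 fold change 1.00, SE 0.11, adjusted p = 4.48e-09). Mgst3 had 9.26 to 31.4 CPM (median 20.5) in the knockout. Sorted cells had 22.3 and 21.4 CPM in group A, 21.03 and 19.5 in B, 24.3 and 45.7 in C, 47.6 and 26.7 in D and 30.7 and 30.5 in E, with overlap (log2 fold change -0.88, SE 0.14, adjusted p = 2.11e-06). Mgst2, which makes leukotriene C4, had 0 to 1.42 CPM (median 0) in the knockout, with 10 of 18 libraries at 0. Sorted cells had 3.82 and 6.41 CPM in group A, 5.26 and 4.81 in B, 0 and 2.44 in C, 2.98 and 2.09 in D and 3.60 and 2.85 in E (log2 fold change -4.33, SE 0.50, adjusted p = 3.59e-08). Mgst2 was not called without C replicate 2, a fit in which group C held only replicate 1, at 0 counts for this gene. Apart from C replicate 1, every sorted library lay above every knockout library before scaling.

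Marker lists of other cells also differed between these groups. Peritubular myoid and stroma genes (12) summed to 1770 to 3328 CPM in the knockout and 186 to 464 CPM in sorted cells. Of these, 10 were higher and 2 lower in the knockout: Actg2 had a median of 7.96 CPM in the knockout and 142 CPM in sorted cells, and Fbln1 7.89 CPM in the knockout and 87.9 CPM in sorted cells. Macrophage genes (9) summed to 672 to 988 CPM in the knockout and 148 to 403 CPM in sorted cells, with 7 higher and 1 lower in the knockout. The lower one was Aif1, with a median of 9.54 CPM in the knockout and 174.6 CPM in sorted cells, whereas Csf1r had a median of 144 CPM in the knockout and 1.33 CPM in sorted cells, and Lyz2 224 CPM in the knockout and 0.19 CPM in sorted cells. Endothelial genes (8), all higher in the knockout, summed to 127 to 229 CPM in the knockout and 16.4 to 45.2 CPM in sorted cells. Spermatocyte genes (12) summed to 37.0 to 77.3 CPM in the knockout, with 2 of them at 0 throughout, and to 2087 to 4405 CPM in sorted cells. Most of the knockout sum was Hspa2, at 35.3 to 74.0 CPM, and each other gene of the list read at most 2.89 CPM there. The part of these cells in any member's fold change was not tested.

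Genes of the wider pathway were counted from lists chosen by function. Of 34 neighbours of glutathione metabolism and thiol exchange, 0 of the 26 tested differed among stage groups in the F test (edgeR), against 8.07% of all genes. Unadjusted, 3 of the 26 had a p under 0.05, against 3141 of all 14331 genes. Gstcd, which carries a transferase-like domain, fell in D (log2 fold change -1.27, SE 0.27, adjusted p = 0.011) and rose from D to E (log2 fold change 1.29, SE 0.32, adjusted p = 0.0405). Of 32 tested between the groups, 18 rose and 10 fell in the knockout, with a median log2 fold change of 0.44. Of all genes tested 85.1% were called, 38.0% higher and 47.0% lower, and the median was -0.17. Dpep1, a dipeptidase of glutathione breakdown, rose and read 42.9 to 115 CPM in the knockout, against 1.31 to 3.96 CPM in sorted cells (log2 fold change 4.60, SE 0.13, adjusted p = 2.79e-20). Cbs, of cysteine synthesis, Idh1, a source of NADPH, and the prostaglandin synthase Ptges also rose. In the knockout Cbs had 26.7 to 49.8 CPM, Idh1 267 to 507 CPM and Ptges 14.2 to 34.8 CPM, and in sorted cells Cbs had 0 to 0.764 CPM, Idh1 38.8 to 101 CPM and Ptges 0 to 0.914 CPM. Lancl1, a glutathione-binding protein, fell and read 39.4 to 55.1 CPM in the knockout, against 138 to 274 CPM in sorted cells (log2 fold change -2.40, SE 0.09, adjusted p = 1.92e-18). The glyoxalase Hagh, the mitochondrial glutathione importer Slc25a39 and the glutaredoxin Glrx3 also fell. In the knockout Hagh had 49.4 to 79.6 CPM, Slc25a39 138 to 209 CPM and Glrx3 24.9 to 55.4 CPM, and in sorted cells Hagh had 144 to 241 CPM, Slc25a39 356 to 665 CPM and Glrx3 87.1 to 169 CPM.

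Of 28 genes of the Nrf2 pathway and other antioxidant enzymes, 2 of 26 tested differed among stage groups, a share near the 8.07% of all genes. They were Ftl1, the ferritin light chain, which rose in C (log2 fold change 1.18, SE 0.22, adjusted p = 0.0157), and Prdx4, a peroxiredoxin of the endoplasmic reticulum, which fell in D (log2 fold change -0.86, SE 0.22, adjusted p = 0.029). Sod2, the mitochondrial superoxide dismutase, also fell in D (log2 fold change -0.82, SE 0.21, adjusted p = 0.0281), and Prdx4 rose from D to E (log2 fold change 1.05, SE 0.27, adjusted p = 0.0466). Of 27 tested between the groups, 9 rose and 14 fell in the knockout, with a median log2 fold change of -0.24, and the share called was again near the 85.1% of all genes. Nqo1, a quinone reductase, Bach1, a repressor of Nrf2 targets, catalase (Cat) and Nfe2l2, which encodes Nrf2, rose. In the knockout Nqo1 had 6.94 to 22.02 CPM, Bach1 18.4 to 29.4 CPM, Cat 20.2 to 60.9 CPM and Nfe2l2 68.3 to 150.4 CPM. In sorted cells Nqo1 had 0 to 0.764 CPM, Bach1 3.52 to 7.45 CPM, Cat 9.79 to 18.4 CPM and Nfe2l2 26.7 to 79.4 CPM. Txnrd3, a thioredoxin and glutathione reductase known from the testis, and the peroxiredoxins Prdx2, Prdx6 and Prdx4 fell. In the knockout Txnrd3 had 21.8 to 37.02 CPM, Prdx2 168 to 242 CPM, Prdx6 219.9 to 293 CPM and Prdx4 33.1 to 62.5 CPM. In sorted cells Txnrd3 had 149 to 508 CPM, Prdx2 347 to 491 CPM, Prdx6 369 to 612 CPM and Prdx4 48.6 to 119.6 CPM. Neither list had a call in the F test over the knockout days (edgeR). Unadjusted, 2 of 32 neighbours and 8 of 27 Nrf2 and antioxidant genes had a p under 0.05, against 1455 of all 13065 genes.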

How the data were processed

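Polyadenylated RNA was sequenced on the Ion Proton, per the labels' protocols. Per the submitters' processing notes, Bowtie, TopHat and Cufflinks were used with mm10; no version, counting step or annotation is given in the sources used here. The tables of read counts were deposited with raw counts for 43280 gene rows. The deposited tables named FPKM hold CPM, since each value equals the count over its library total to within 0.0005. In the knockout counts the day 42 columns share a header, so these libraries carry no replicate number. Spreadsheet conversion had turned 27 symbols into dates. Positions came from GENCODE M21, which holds 91.1% of the symbols and all 40 members.

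CPM was computed from counts and library totals. Genes were selected by filterByExpr and libraries scaled by TMM. Quasi-likelihood F tests of edgeR 4.0.16 (limma 3.58.1, R 4.3.3) were fitted in sorted cells (14331 genes), the knockout (13065) and both together (15777), with Benjamini-Hochberg adjustment over all genes tested and calls at an adjusted p under 0.05. SE is the log2 fold change divided by the root of F. Alternatives were RLE scaling, library totals, no filter, DESeq2 1.42.0, limma on log2(CPM + 1), the replicate number as a block, scaling by Sertoli genes, leaving out day 42, and leaving out each library; where that leaves 1 library in a group, it is assumed to vary as the others do. The fits were checked on simulated data. Promoters came from RefSeq, which held 35 of 40 members by symbol.

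Members and lists were chosen with earlier results of these data known. The rule described in full every member called in any comparison and Gsta2, Gsta3 and Gsr, and named from each pathway list up to 4 called genes per direction with the smallest p.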

Additional observations from a re-analysis of the deposited data

How the results depend on the processing

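Counts of called members with each library left out in turn ran from 3 to 8 over the stage groups, 1 to 3 in A, 0 to 0 in B, 2 to 6 in C, 1 to 8 in D, 0 to 1 in E, 0 to 1 from C to D, 0 to 3 from D to E, 0 to 5 over the knockout days, 0 to 3 on the line, 0 to 0 in the cycle, and 30 to 32 between knockout and sorted cells. The 5 over the days were called without day 49 replicate 2. With no filter on low counts, 4 members and 901 of 28917 genes were called in A, and 2 members and 651 genes in E. Over the knockout days it was 5 members and 968 of 26924 genes, and in the cycle 1 member and 359 genes. DESeq2 called 2 members and 294 genes in E, and 1 member and 215 genes over the days. Limma called 1 member and 25 genes on the line. Apart from the block and leaving out day 42, every other setting stayed within 1.5 times the main count.

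Between knockout and sorted cells, 25 of the 32 called members kept their call in every setting run. The sign turned for Gclm (log2 0.0497 with library totals, 0.0532 by limma) and Gstz1 (0.13 and 0.12). The TMM and library-total scalings differ by the shift in the all-gene median given with that comparison; the cause was not tested.

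The replicate numbers were not shown to pair libraries. Correlations of deviations between same-numbered libraries ran from -0.21 to 0.10 in the knockout (0 of 28 pairs over 0.1) and from -0.09 to 0.40 in sorted cells (6 of 10). With the number as a block, 8 members were called over the stage groups, 3 in A, 6 in C, 7 in D, and 0 in B and E; 0 were called over the days, on the line and in the cycle, where day 42 was left out, and 32 between the groups. Among all genes the block raised the calls from 1156 to 1670 over the stage groups and from 1239 to 1661 in D. The members gained were Gstt2 and Mgst1 over the groups (adjusted p = 0.0332 and 0.0285) and in C, Gstk1 in A and Gsto2 in D. Leaving out day 42 with no block, chosen after seeing the data, also gave 0 calls over the days, on the line and in the cycle. A count of 3 was worth 0.568 to 2.24 CPM, so a level below that in 1 library cannot be told from 0.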
